A study of Mus musculus with 12 samples.

Results

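Histone lysine methyltransferases, histone lysine demethylases and protein arginine methyltransferases were followed through male mouse germ cell arrays at an early and a late stage, with a cell type of the animal and a cultured counterpart at each. The genes were those whose symbol starts with Kdm1 to Kdm8, Setd, Prmt, Kmt2, Kmt5, Suv39, Ehmt, Ezh or Nsd, without Kdm5d, among probe sets (the groups of short oligonucleotides that measure a transcript) with a single gene symbol. This rule found 53 of 18193 genes, measured by 145 probe sets, and of several probe sets for a gene the brightest on average over 12 arrays stands for it. No expression value other than this choice of probe set entered the rule. Symbols were the only criterion, so the rule also caught genes that do not act as histone methylation enzymes. Among them, Nsdhl codes for an enzyme of sterol synthesis, Ezhip for an inhibitor of the Polycomb complex PRC2, and Setd3 for a methyltransferase of actin. Other members, such as Prmt3, Prmt9 and Setd6, are described below by substrates that are not histones. Suv39h1 had no probe set of its own in the annotation used and was not analysed here.

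The groups were spermatid-like cells (SLC) obtained by differentiation in vitro, round spermatids (RS) from testes of BDF1 males at 3 weeks, primordial germ cell-like cells (PGCLC) at day 6 of differentiation in vitro, and primordial germ cells (PGC) from genital ridges of BDF1 male fetuses at E12.5. Each group had 3 arrays that the labels call biological replicates. The strain of the cultured cells is not given in the labels used here. All cells were collected by FACS with no gate stated, total RNA was hybridised to Affymetrix 3' expression arrays, and signals are linear intensity units. The labels name neither pooled animals nor the number of cell lines behind the cultured groups.

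The arrays were of similar brightness, with medians between 73.2 and 107 units and between 44.5% and 53.0% of probe sets above the filter level of 92.0 units. Spermatid markers separated the stages as labelled. The summed signal of 8 spermatid markers lay between 124238 and 130053 units on SLC arrays and between 165536 and 176888 on RS arrays, against 158 to 324 on PGCLC arrays and 222 to 365 on PGC arrays. That of 7 meiotic spermatocyte markers was 5906 to 6616 units on SLC arrays and 10246 to 11005 on RS arrays. On PGCLC arrays it was 2285 to 4633 units and on PGC arrays 5215.5 to 6055. The part of spermatocyte transcripts in the members' differences was not tested. The PGCLC arrays differed among themselves: the summed signal of 7 PGC markers ran between 23446 and 56371 units on them, against 62226 to 66084 on PGC arrays. The summed signal of the 12 testis somatic markers measured of 14 listed was 89388 to 89955 units on SLC arrays, against 2714 to 3131 on RS arrays, and 17844 to 19106 on PGCLC arrays, against 6610.4 to 7831 on PGC arrays. Total RNA was measured, so fewer cells of a type and less RNA per cell cannot be told apart in any value below.

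Methyl groups on histone tails mark chromatin states: methylation of lysine residues H3K4 and H3K36 is found at active promoters and along transcribed genes, and that of H3K9 and H3K27 at silenced regions. Methyltransferases with a SET domain add these marks, the flavin-dependent KDM1 enzymes and the JmjC-domain KDM enzymes remove them, and PRMT enzymes methylate arginines of histones and many other proteins. In the male germ line PGCs erase and rebuild much of their chromatin marking while they proliferate, and round spermatids are transcriptionally active haploid cells that will later replace most histones with protamines.

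All 53 genes passed the filter on low signals, and 41 of them lay above the filter level on every array. Ezhip, Kdm4c, Kdm4d, Prmt8 and Setd7 had at least 1 group with no array above that level, so they passed through their other groups and some difference was built in for them. By group mean, SLCs were the highest group for 0 of the genes, RS for 8, PGCLCs for 20 and PGCs for 25. SLCs were the lowest group for 15, RS for 32, PGCLCs for 4 and PGCs for 2. The heat map of all 53 genes shows this division between the late and the early arrays.

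**Figure D1:**
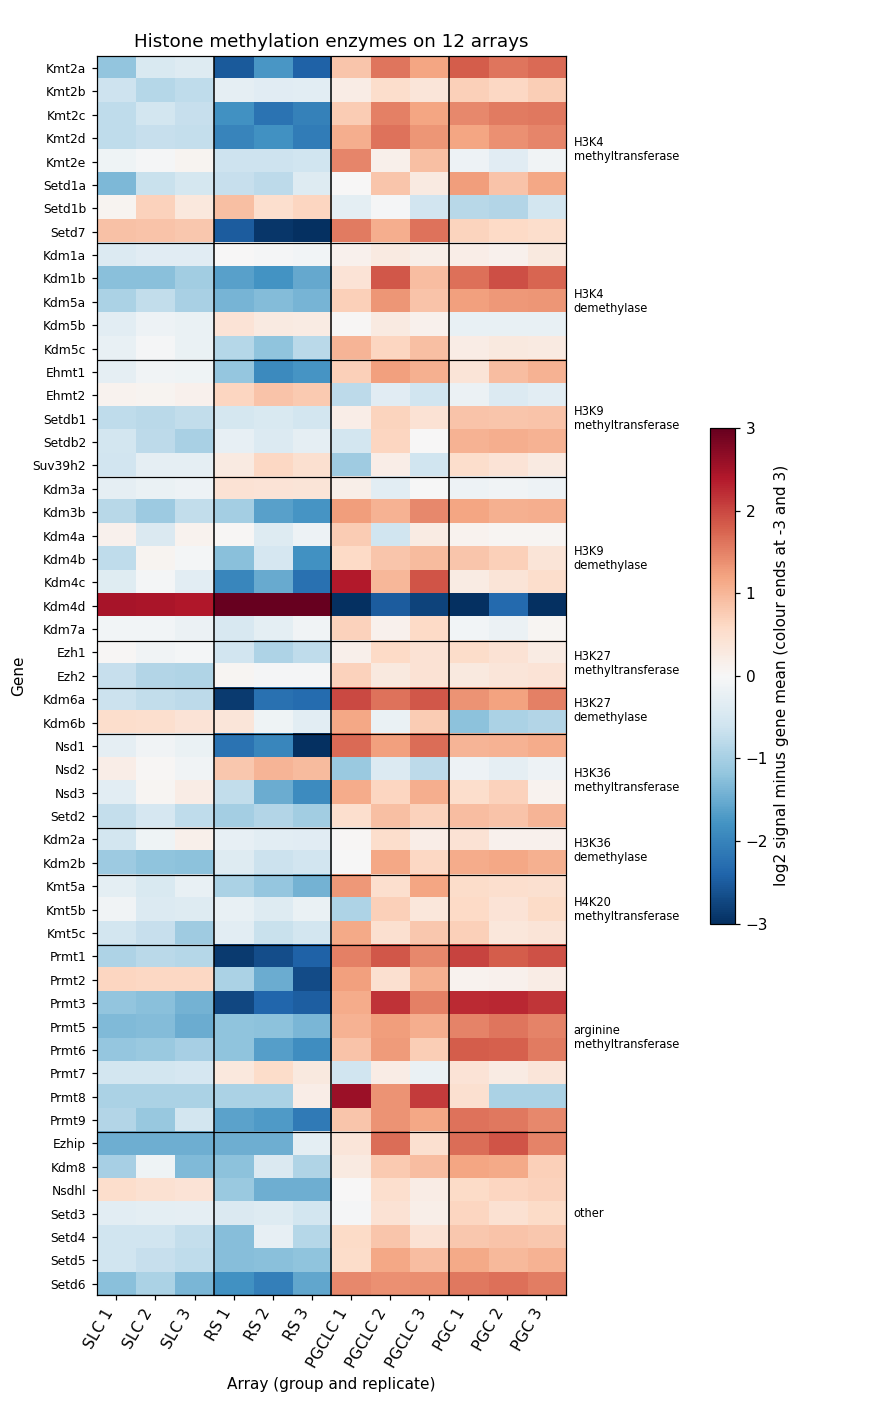
Each row is a gene, grouped by substrate, and each column an array, ordered SLC, RS, PGCLC and PGC with 3 arrays each. Colour gives the log2 signal minus the gene's mean over 12 arrays, with the scale ending at -3 and 3; most rows are blue on SLC and RS arrays and red on PGCLC and PGC arrays, and the Kdm4d row runs the other way.

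The first comparison set RS against PGCs, the late against the early stage in the animal. A gene was called when limma's adjusted p was under 0.05 and the difference at least 2-fold, and the words rose and fell are kept for called genes. Of the 53 genes, 4 rose and 35 fell in RS (7.55% and 66.0%), where 31.8% and 37.7% of all 14197 genes tested were called higher and lower, 69.5% in all. The members' median log2 difference was -1.68, against -0.23 over all genes. After median centring of the arrays the medians were -1.63 for the members and -0.18 for all genes, and after quantile normalization -1.29 and -0.06. Markers of other cells of the gonad differed as well: 5 of 7 fetal gonad somatic markers fell in RS and 0 rose, with a summed signal of 723 to 855 units in RS, against 3269.9 to 4059 in PGCs. Of the 12 testis somatic markers 6 fell and 2 rose. Of 8 blood and endothelial markers 4 fell and 3 rose, with a summed signal of 816 to 917 units in RS, against 13642 to 14669.8 in PGCs. Their part in the members' differences was not tested.

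Kdm4d, which removes methyl groups from H3K9 and is known as a testis-enriched member of its family, had the largest rise. Its signals were 2172, 2737 and 2802 units on RS arrays, against 16.9, 53.7 and 28.3 on PGC arrays. Every RS array was far above every PGC array, and 2 of the PGC arrays lay below the floor of 30.7 units to which low signals were raised before taking logs. The log2 difference was 6.11 (SE 0.24, n = 3 each, limma adjusted p = 2.12e-10), or 69.0-fold from mean log values and 66.9-fold from mean signals after the floor. These folds depend on the floor, since the PGC signal is near it. Kdm4d passed the filter through its RS and SLC arrays alone. A difference from the early groups was thus partly built in, and the p values given for Kdm4d between the stages do not test it.

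The promoters of Kdm4d, which rose most, and of the arginine methyltransferase Prmt1, which was among the genes that fell most, are shown because these genes moved in opposite directions between the stages. Both are RefSeq sequences of build GRCm38.p6 that run 250 bases before to 50 bases after the start of the transcript, on the minus strand at chr9:14500433-14500732 for Kdm4d and at chr7:44986371-44986670 for Prmt1. Capitals mark matches, on either strand, to TGACGT (the core of the cAMP response element), CACGTG (an E-box) and GGCGGG (a GC box), which do not overlap each other in these windows.
Kdm4d: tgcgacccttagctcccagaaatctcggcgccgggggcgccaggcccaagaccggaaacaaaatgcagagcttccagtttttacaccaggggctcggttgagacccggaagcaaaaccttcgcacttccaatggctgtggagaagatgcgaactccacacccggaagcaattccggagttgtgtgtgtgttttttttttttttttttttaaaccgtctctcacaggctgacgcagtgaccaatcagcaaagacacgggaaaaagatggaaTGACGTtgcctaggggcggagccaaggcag
Prmt1: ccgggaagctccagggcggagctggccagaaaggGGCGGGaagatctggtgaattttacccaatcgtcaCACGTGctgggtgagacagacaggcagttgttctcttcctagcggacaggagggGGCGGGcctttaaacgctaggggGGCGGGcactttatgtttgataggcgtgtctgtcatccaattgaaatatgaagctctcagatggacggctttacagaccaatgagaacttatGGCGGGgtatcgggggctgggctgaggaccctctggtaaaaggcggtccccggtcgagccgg

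The Kdm4d window holds 1 match to TGACGT, just after the start, and 0 to CACGTG or GGCGGG, while the Prmt1 window holds 1 match to CACGTG and 4 to GGCGGG. RefSeq promoters were found for 42 of the 53 genes, 54 promoters in all, against 32851 in the whole table. GGCGGG occurred in 66.7% of the members' promoters, against 35.3% of all promoters, TGACGT in 13.0% against 7.51%, CACGTG in 11.1% against 7.15%, CCAAT in 44.4% against 37.4% and TATAAA in 1.85% against 13.6%, each on either strand. The median number of CpG dinucleotides per 300 bases was 26.5 in the members' promoters, against 7 in all promoters. GGCGGG itself contains a CpG, and a match is a description of these letters only.

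Among the H3K4 methyltransferases 1 rose and 6 fell of 8 in RS. Setd1b, the catalytic subunit of a SET1 complex, rose, with 1221, 924 and 1021 units on RS arrays, against 367, 357 and 447 on PGC arrays. That is a log2 difference of 1.43 (SE 0.19, limma adjusted p = 1.77e-05, 2.70-fold). Kmt2a, the MLL1 enzyme that maintains Hox gene expression, fell, with 57.6, 98.8 and 61.7 units on RS arrays, against 1178, 1004 and 1086 on PGC arrays. Its RS signals sat near the filter level and far below all PGC signals, and the log2 difference was -3.95 (SE 0.27, limma adjusted p = 4.51e-08, 15.4-fold).

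Kmt2c, which methylates H3K4 at enhancers, had 255, 192 and 222 units in RS, against 2418, 2629 and 2692 in PGCs, a log2 difference of -3.54 (SE 0.17, limma adjusted p = 1.65e-09). Its relative Kmt2d fell by 3.31 on the log2 scale. Setd7, which monomethylates H3K4 in the test tube and several non-histone proteins in cells, had 82.0, 62.0 and 50.1 units in RS, against 743, 707 and 676 in PGCs, and fell by 3.48 (SE 0.19, limma adjusted p = 4.3e-09). The arrays of the groups did not overlap for any of these genes. Kmt2b, the MLL2 enzyme of bivalent promoters, lay at the edge of the threshold, with 766 ± 20.4 units in RS and 1539 ± 68.8 in PGCs (SD, n = 3 each), a 2.01-fold difference (log2 -1.01, limma adjusted p = 2.49e-06). The call for Kmt2b was lost after median centring (-0.95) and quantile normalization (-0.70), without PGC replicate 1 or 3 or RS replicate 2, and with 16 units added in place of the floor.

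Of the 5 H3K4 demethylases, 3 fell and 0 rose in RS. Kdm1b, known in mice for its part in setting maternal imprints in oocytes, fell by 3.43 on the log2 scale, Kdm5a, a demethylase of trimethylated H3K4, by 2.66, and its X-linked relative Kdm5c by 1.21. Kdm1a (LSD1), the flavin-dependent enzyme of the CoREST complex, was at 7226 ± 246 units in RS and 8524 ± 462 in PGCs (SD, n = 3 each), a 1.18-fold difference (log2 -0.24, limma adjusted p = 0.00305). Kdm5b, another demethylase of trimethylated H3K4, had 3622, 3283 and 3272 units in RS, against 2342, 2344 and 2341 in PGCs. All RS arrays were higher, but the 1.45-fold difference (log2 0.53, SE 0.08, limma adjusted p = 5.49e-05) is under the 2-fold minimum. Both other Kdm5b probe sets that passed the filter were lower in RS, at -0.59 and -2.81 on the log2 scale.

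The H3K9 methyltransferases were divided, with 1 that rose and 3 that fell of 5. Ehmt2 (G9a) and Ehmt1 (GLP) work as a complex that dimethylates H3K9, and their signals went apart. Ehmt2 had 5775, 6636 and 6398 units in RS, against 3292, 2788 and 2989.5 in PGCs, a log2 difference of 1.05 (SE 0.11, limma adjusted p = 1.87e-06, 2.07-fold). Ehmt1 had 399.6, 239 and 265 units in RS, against 1170.3, 1716 and 1846 in PGCs, and fell by 2.40 (SE 0.22, limma adjusted p = 5.84e-07). For both genes the RS arrays lay apart from all PGC arrays, on opposite sides. The Ehmt2 rise is close to the threshold and was lost after quantile normalization (0.81) and without PGC replicate 2 (0.9963).

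Setdb1, which trimethylates H3K9 at silenced retroelements, fell 2.57-fold, to 780.4, 815 and 767 units in RS, against 2029, 2001 and 2043 in PGCs (log2 -1.36, SE 0.11, limma adjusted p = 2.11e-07). Suv39h2, the pericentromeric H3K9 enzyme known for its expression in testis, had 1309, 1646 and 1512 units in RS, against 1548, 1435 and 1299 in PGCs, and the ranges overlapped (log2 0.06, SE 0.25, limma adjusted p = 0.837).

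Of 7 H3K9 demethylases, 1 rose and 3 fell. The rise is that of Kdm4d, and the falls were those of its relatives Kdm4b (log2 -1.84) and Kdm4c (-2.29) and of Kdm3b (-2.59). Kdm3a, which in mice is needed to activate the transition protein and protamine genes in spermatids, had 4416, 4338 and 4249 units in RS, against 2928, 3022 and 2951 in PGCs. Every RS array was higher, by 1.46-fold (log2 0.55, SE 0.10, limma adjusted p = 0.000401), which is under the 2-fold minimum. Kdm4d and Kdm4c, which both act on H3K9, thus had log2 differences of 6.11 and -2.29 in the same comparison.

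The H3K27 enzymes are the PRC2 methyltransferases Ezh1 and Ezh2 and the demethylases Kdm6a (UTX) and Kdm6b (JMJD3). Kdm6a had 62.2, 96.2 and 91.7 units in RS, against 1148, 1050.3 and 1289.5 in PGCs, and fell by 3.82 on the log2 scale (SE 0.18, limma adjusted p = 9.9e-10, 14.2-fold). Kdm6b had 1087, 771 and 679 units in RS, against 358, 442 and 457 in PGCs, and the difference of 0.99 (SE 0.29, limma adjusted p = 0.00703) missed the 2-fold minimum narrowly. Its other probe set that passed the filter had the opposite sign, at -0.34. On the probe set used, Kdm6b was called after median centring (1.05), after quantile normalization (1.27) and without PGC replicate 2 or 3 or RS replicate 2 or 3.

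Ezh1 fell, with 335 ± 40.5 units in RS and 747 ± 79.4 in PGCs (SD, n = 3 each, log2 -1.16, limma adjusted p = 1.37e-05), a call that quantile normalization removed (-0.64). Ezh2 was at 3563 ± 155 units in RS and 4583 ± 185 in PGCs, a 1.29-fold difference (log2 -0.36, limma adjusted p = 0.00499) under the minimum. Ezhip had 29.3, 4.77 and 68.8 units in RS, against 269, 309 and 237 in PGCs, and was lower by 6.72-fold from mean log values and by 6.25-fold from mean signals after the floor.

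Among the H3K36 methyltransferases 1 rose and 3 fell of 4. Nsd1, which dimethylates H3K36 and has a known role in DNA methylation of the mouse germ line, had 120.4, 143 and 67.9 units in RS, against 1122, 1140.1 and 1201 in PGCs, and fell by 3.45 (SE 0.24, limma adjusted p = 3.83e-08). Setd2, the trimethylating enzyme that travels with RNA polymerase II, fell 3.77-fold, to 429 ± 27.1 units in RS, against 1618 ± 98.3 in PGCs (SD, n = 3 each, log2 -1.91, limma adjusted p = 2.41e-08). Nsd2 had 2347, 2736 and 2586 units in RS, against 1214, 1111 and 1209 in PGCs, a rise of 1.12 on the log2 scale (SE 0.16, limma adjusted p = 2.98e-05) that its other probe sets did not share, as described with the probe sets below. Of the H3K36 demethylases, Kdm2b fell by 1.65 and Kdm2a had a log2 difference of -0.54 (limma adjusted p = 0.0213). Of the 3 H4K20 methyltransferases only Kmt5a, the monomethylating enzyme of the cell cycle, was called, at 384 ± 63.3 units in RS and 1221 ± 33.6 in PGCs (SD, n = 3 each, log2 -1.68, limma adjusted p = 4.48e-06).

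The arginine methyltransferases had the lowest median of all the classes, -3.04 on the log2 scale, with 6 of 8 that fell and 0 that rose. Prmt1, the main source of asymmetric arginine dimethylation, had 276, 319.6 and 371 units in RS, against 8152, 7071 and 7502 in PGCs, and fell by 4.56 (SE 0.13, limma adjusted p = 1.33e-11, 23.6-fold). Prmt3, a methyltransferase of a ribosomal protein, had 126, 162 and 150.0 units in RS, against 3984, 4028 and 3730.3 in PGCs, and fell by 4.75 (SE 0.22, limma adjusted p = 9.45e-10, 26.9-fold). Both genes were bright on every PGC array and dim on every RS array.

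Prmt5, the symmetric enzyme that acts with Prdm1 in PGCs, had 537, 532 and 479.6 units in RS, against 3484, 3758 and 3462 in PGCs, and fell 6.92-fold (log2 -2.79, SE 0.10, limma adjusted p = 8.43e-11). Prmt9, which methylates a splicing factor, fell by 3.36, Prmt6, which methylates an arginine of H3, by 3.30 and Prmt2 by 1.86. Prmt7, which only monomethylates arginine, had a log2 difference of 0.04 (limma adjusted p = 0.812), and Prmt8 was near or below the floor on most arrays of both groups. The 7 remaining genes, which include the SET proteins Setd3 to Setd6, the JmjC protein Kdm8, Ezhip and Nsdhl, all fell, between 1.01 and 3.40 on the log2 scale. The lowest was Setd6, a methyltransferase of an NF-kappa B subunit, at 134 ± 23.1 units in RS and 1401 ± 63.9 in PGCs (SD, n = 3 each).

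**Figure D2:**
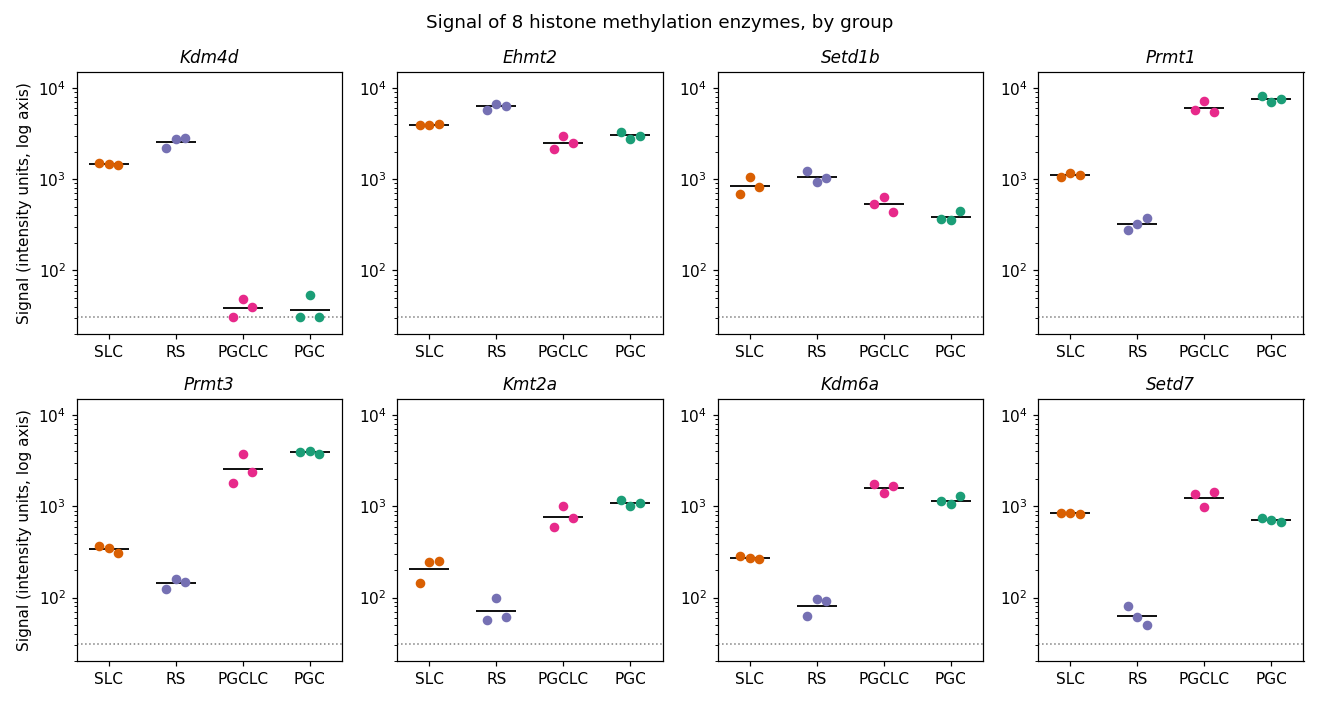
Signal of 8 genes in intensity units on a log axis, 1 point per array (signals below the floor drawn at the floor, the dotted line at 30.7), with a bar at the mean of the log values of 3 arrays; groups run SLC, RS, PGCLC, PGC. Kdm4d is high on SLC and RS arrays only, Prmt1, Prmt3, Kmt2a and Kdm6a are high on PGCLC and PGC arrays with SLC above RS, and Setd7 is low on RS arrays only.

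The second comparison set SLCs against PGCLCs, the late against the early stage in culture. Of the 53 genes 1 rose and 31 fell in SLCs (1.89% and 58.5%), where 29.9% and 27.4% of all genes tested were called higher and lower, 57.2% in all. The median log2 difference was -1.21 for the members and -0.07 over all genes. Of the 12 testis somatic markers 7 rose and 0 fell in SLCs, of the 8 blood and endothelial markers 1 rose and 5 fell, and of the 7 fetal gonad somatic markers 2 rose and 1 fell. The part of these markers in the members' differences was not tested. The comparison shares no array with that of RS and PGCs. Of the members, 28 fell in both, and Kdm4d was the gene that rose in both. The share of all genes tested that fell in both was not computed.

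Kdm4d had 1489.8, 1474 and 1421 units on SLC arrays, against 8.38, 48.1 and 39.4 on PGCLC arrays. The SLC arrays were close to each other and far above all PGCLC arrays, and the log2 difference was 5.24 (SE 0.24, limma adjusted p = 1.52e-09), or 37.7-fold from mean log values and 37.1-fold from mean signals after the floor. This difference too was partly built in by the filter, and its p value does not test it. Setd1b, Ehmt2 and Nsd2, which rose in RS, were also higher on every SLC array than on any PGCLC array, by 0.65, 0.67 and 0.81 on the log2 scale, and were not called because each difference was under 2-fold. The other Ehmt2 probe set had 0.05 with overlapping arrays, and the 3 other Nsd2 probe sets were lower in SLCs.

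Arginine methyltransferases fell in 6 of 8 cases, with a median of -2.26. Prmt1 had 1053, 1154 and 1105 units in SLCs, against 5763, 7254 and 5427 in PGCLCs, and fell by 2.47 (SE 0.13, limma adjusted p = 5.9e-09). Prmt3 had 368, 353 and 312 units in SLCs, against 1802, 3791 and 2407 in PGCLCs, and fell by 2.89 (SE 0.22, limma adjusted p = 1.59e-07). Prmt5 had 492, 502 and 439 units in SLCs, against 2535, 2963 and 2619 in PGCLCs, and fell by 2.50 (SE 0.10, limma adjusted p = 3.87e-10). The SLC arrays of all 3 genes agreed closely, and the PGCLC arrays were spread but always higher.

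Prmt8, a membrane-bound enzyme known from neurons, was measured above the filter level in PGCLCs alone. It had 3.85, 3.50 and 13.0 units in SLCs, all below the floor, against 350.3, 151 and 253 in PGCLCs, and was at least 7.72-fold lower in SLCs (log2 -2.95, SE 0.46, limma adjusted p = 9.53e-05). Prmt8 passed the filter through its PGCLC arrays alone. A difference between PGCLCs and the other groups was thus built in, and the p values given for Prmt8 do not test it.

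H3K4 methyltransferases fell in 5 of 8 cases, H3K4 demethylases in 3 of 5, H3K9 methyltransferases in 2 of 5, H3K9 demethylases in 3 of 7, H3K36 methyltransferases in 2 of 4 and H4K20 methyltransferases in 2 of 3. Kmt2a had 146, 243 and 252 units in SLCs, against 589, 1004 and 750.4 in PGCLCs (log2 -1.88, SE 0.27, limma adjusted p = 5.76e-05). Kdm6a had 289, 273 and 263 units in SLCs, against 1781, 1390.3 and 1654 in PGCLCs (log2 -2.54, SE 0.18, limma adjusted p = 7.28e-08). Setd6 had 195, 240.2 and 178 units in SLCs, against 1271, 1192 and 1220.1 in PGCLCs (log2 -2.60, SE 0.15, limma adjusted p = 1.67e-08). For these genes every SLC array was under every PGCLC array.

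Ezh2 fell here, with 2227, 1939 and 1919 units in SLCs, against 5744, 4393 and 4862 in PGCLCs (log2 -1.30, SE 0.10, limma adjusted p = 1.85e-07). Ezhip, below the floor on all SLC arrays, was at least 4.90-fold lower in SLCs. Setdb1 fell to 660.3 ± 18.4 units in SLCs, against 1538 ± 248 in PGCLCs, Setd2 to 536 ± 49.9 against 1381 ± 199, Nsd1 to 489 ± 30.9 against 1626 ± 281, Kmt5a to 687 ± 54.0 against 1765 ± 474, and Kmt2b to 568 ± 48.6 against 1232 ± 134 (SD, n = 3 each). Kdm1a, Kdm3a, Kdm5b, Kdm6b, Ezh1 and Suv39h2 were not called, with log2 differences of -0.56, -0.15, -0.37, -0.10, -0.44 and 0.12. The other Kdm5b probe sets had -0.59 and -2.50, and with the mean over probe sets Kdm5b was called lower in SLCs (-1.16, limma adjusted p = 1.77e-05).

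Across the 53 genes the stage differences in culture and in the animal were alike in sign for 48, negative in both for 43 and opposite for Kdm3a, Kdm5b, Kdm6b, Nsdhl and Prmt7. As a description over 53 genes that share the same 12 arrays, the correlation was 0.854 (Pearson) and 0.762 (Spearman), and 0.773 (Pearson) without Kdm4d. The fall in culture was the smaller one for 26 of the 28 genes that fell in both. None of these figures was computed over all genes tested, so they are not read as particular to the set. Whether the differences themselves were unequal was tested by an interaction term, the SLC minus PGCLC difference less the RS minus PGC difference.

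The interaction was called for 16 of the 53 genes, 14 positive and 2 negative, where 21.1% and 11.2% of all genes were called positive and negative, 32.3% in all. Its median was 0.46 for the members and -0.04 for all genes. After quantile normalization 8 were positive and 3 negative, and the members' median was 0.09, with all genes at -0.13. The share of members called was near that of all genes. The positive calls included 5 of 8 arginine methyltransferases and 4 of 8 H3K4 methyltransferases, and 3 of 8 of each after quantile normalization. Among the testis somatic markers 10 of 12 had a positive called interaction and 0 a negative. For the 7 fetal gonad somatic markers the counts were 5 and 1. The part of these markers in the members' interactions was not tested.

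Setd7 had the largest positive interaction, 2.91 on the log2 scale (SE 0.27, limma adjusted p = 5.74e-06), from a difference of -0.57 in culture and -3.48 in the animal. Nsdhl followed with 2.21 (SE 0.19, limma adjusted p = 3.84e-06), from 0.22 in culture and -1.99 in the animal. Prmt1 had 2.10 (SE 0.18, limma adjusted p = 3.96e-06) and Kmt2a 2.07 (SE 0.39, limma adjusted p = 0.00125). In the other direction, Prmt8 had -2.85 (SE 0.65, limma adjusted p = 0.00398), with -2.95 in culture and -0.10 in the animal. Prmt8 passed the filter through its PGCLC arrays alone, so this value was partly built in. Kdm6b had -1.09 (SE 0.41, limma adjusted p = 0.0438), and of the fits without a single array this call was kept only by those without PGCLC replicate 2 or RS replicate 3. It was also lost with no filter on low values (limma adjusted p = 0.0722) and with the mean over probe sets (-0.25).

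**Figure D3:**
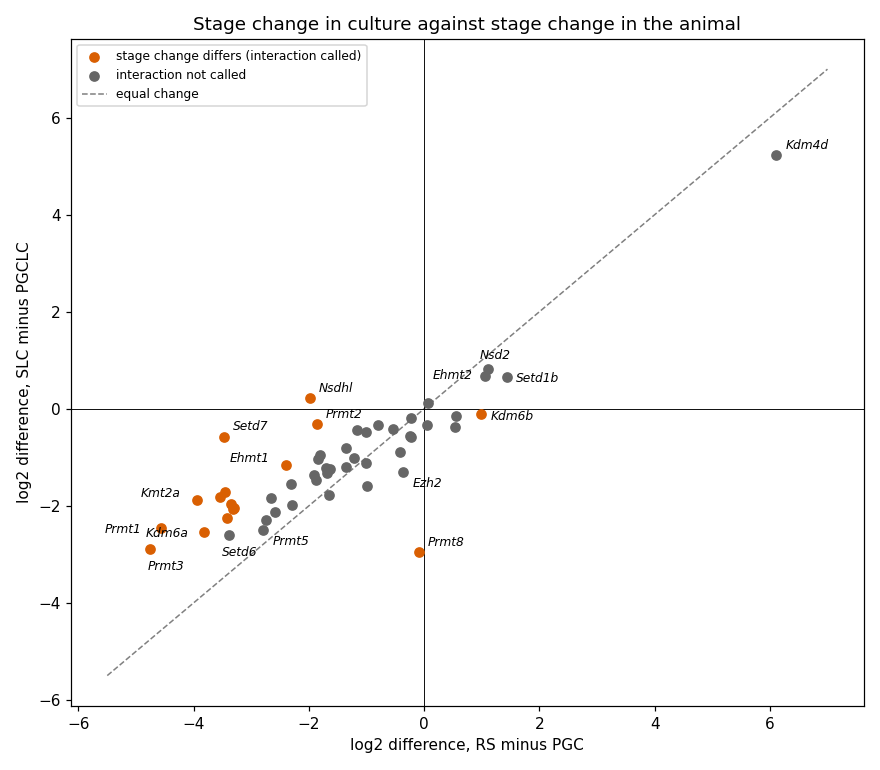
Each point is a gene, with the log2 difference RS minus PGC on the horizontal axis and SLC minus PGCLC on the vertical axis; orange points had a called interaction and the dashed line marks equal differences. Most points lie at the lower left, above the dashed line, with Kdm4d far out at the upper right and Prmt8 low near the vertical axis.

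The third comparison set SLCs against RS, the cultured against the animal's late cells. Of the 53 genes 13 rose and 0 fell in SLCs by limma, where 24.0% and 3.44% of all genes tested were called higher and lower, 27.4% in all. The 13 were Setd7, Prmt2, Nsd1, Nsdhl, Prmt1, Kdm6a, Kdm4c, Kmt2a, Ehmt1, Kmt2c, Nsd3, Kmt2d and Prmt3. At an unadjusted p under 0.05 with no fold minimum, 25 were higher and 12 lower, and the share of all genes at that threshold was not computed. The members' median was 0.32, against -0.15 over all genes, and the share of members called higher was close to that of all genes.

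Scaling moved this comparison: median centring shifted the median of all genes to -0.40 and that of the members to 0.06, and gave 11 that rose and 5 that fell (Ezh2, Kdm4d, Nsd2, Prmt7 and Suv39h2). After quantile normalization the members' median turned to -0.01, with all genes at -0.33, and 8 rose. The shares of all genes called after either scaling were not computed. The testis somatic markers stood higher in SLCs for 12 of 12 measured, between 1.11 and 7.06 on the log2 scale, with Cyp11a1, Star and collagen transcripts among them. No RS array had a signal of Cyp11a1, a Leydig cell enzyme, above the floor. The part of these transcripts in the members' differences was not tested.

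Setd7 had 851, 846 and 821 units in SLCs, against the 82.0, 62.0 and 50.1 units in RS given above, a rise of 3.73 on the log2 scale (SE 0.19, limma adjusted p = 1.49e-08, 13.2-fold). Prmt2, a weakly active arginine methyltransferase and coactivator of nuclear receptors, had 493, 481 and 484 units in SLCs, against 163, 112 and 49.1 in RS (log2 2.33, SE 0.35, limma adjusted p = 0.000147). Nsd1 had 459, 520.5 and 488 units in SLCs, against 120.4, 143 and 67.9 in RS (log2 2.21, SE 0.24, limma adjusted p = 9.2e-06). In each case the lowest SLC array was well above the highest RS array.

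Nsdhl, the X-linked sterol enzyme, had 1254, 1200.5 and 1151 units in SLCs, against 399, 314 and 316 in RS (log2 1.82, SE 0.14, limma adjusted p = 4.17e-07). Prmt1 differed by 1.79 (SE 0.13, limma adjusted p = 3.13e-07, 3.45-fold) and Kdm6a by 1.75 (SE 0.18, limma adjusted p = 5.63e-06, 3.35-fold). The other calls, Kdm4c, Kmt2a, Ehmt1, Kmt2c, Nsd3, Kmt2d and Prmt3, lay between 1.24 and 1.67.

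Of the genes that rose in RS relative to PGCs, none was called between SLCs and RS. Kdm4d was between 1421 and 1489.8 units in SLCs and between 2172 and 2802 in RS (log2 -0.81, SE 0.24, limma adjusted p = 0.0117). Ehmt2 was at 3966 ± 59.8 units in SLCs and 6269 ± 445 in RS (SD, n = 3 each, log2 -0.66, limma adjusted p = 0.000286), and Nsd2 at 1383 ± 143 in SLCs and 2556 ± 196 in RS (log2 -0.89, limma adjusted p = 0.000447). Ezh2 was at 2028 ± 172 units in SLCs and 3563 ± 155 in RS (log2 -0.82, limma adjusted p = 2.79e-05), Kdm3a at 2825 ± 111 and 4334 ± 83.6 (log2 -0.62, limma adjusted p = 0.000339), and Kdm1a at 5719 ± 178 and 7226 ± 246 (log2 -0.34, limma adjusted p = 0.000499). In these 6 cases every SLC array lay below every RS array, by less than 2-fold on the probe sets used. The other Ehmt2 probe set had -1.98. Setd1b, which also rose in RS relative to PGCs, overlapped between SLCs and RS (log2 -0.32, limma adjusted p = 0.155). The share of all genes tested without overlap was not computed. Prmt5, at 478 ± 34.2 units in SLCs and 516 ± 31.5 in RS, overlapped (log2 -0.11, SE 0.10, limma adjusted p = 0.334).

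The set holds 4 X-linked genes, Kdm6a, Kdm5c, Ezhip and Nsdhl. All 4 fell in RS relative to PGCs, 3 of them fell in SLCs relative to PGCLCs, with Nsdhl the exception, and Kdm6a and Nsdhl rose in SLCs relative to RS. Of all genes tested, 37.7%, 27.4% and 24.0% were called in these directions, in the same order. The shares among all X-linked genes were not computed. Kdm5c was at 362 ± 26.4 units in SLCs and 209 ± 29.4 in RS (SD, n = 3 each, log2 0.80, limma adjusted p = 0.00064), short of 2-fold. Only 3 of its 7 other probe sets that passed the filter had the same sign, with log2 differences between -0.89 and 1.72.

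The fourth comparison set PGCLCs against PGCs, the cultured against the animal's early cells. Of the 53 genes 4 rose and 1 fell in PGCLCs, where 10.4% and 1.62% of all genes tested were called higher and lower. The median was -0.18 for the members and 0.005 for all genes. Median centring shifted these medians to -0.48 and -0.23 and gave 3 that rose and 6 that fell. In a fit of the 6 arrays of these groups alone, limma called 0 members, with a lowest adjusted p of 0.0584 and, at an unadjusted p under 0.05, 11 higher and 12 lower. The shares of all genes were not computed for these settings.

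The calls rest on PGCLC arrays that were far from alike. Prmt8 had 350.3, 151 and 253 units in PGCLCs, against 83.1, 26.6 and 8.06 in PGCs (log2 2.47, SE 0.46, limma adjusted p = 0.00431), or 5.54-fold from mean log values and 5.22-fold from mean signals after the floor. Prmt8 passed the filter through these PGCLC arrays alone. Its place among the genes that rose was therefore partly built in, and its p value does not test the difference. Kdm6b had 1889.6, 742 and 1439 units in PGCLCs, against 358, 442 and 457 in PGCs (log2 1.60, SE 0.29, limma adjusted p = 0.00392). Its other probe set had 0.18, and with the mean over probe sets the difference was 0.89 (limma adjusted p = 0.0436) and the call was lost. Kdm4c, an H3K9 demethylase known to keep embryonic stem cells pluripotent, had 1233, 469.6 and 876 units in PGCLCs, against 283, 313 and 340.4 in PGCs (log2 1.36, SE 0.31, limma adjusted p = 0.01). On the probe sets used for Prmt8, Kdm6b and Kdm4c the lowest PGCLC array was replicate 2, and it still lay above every PGC array.

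Kmt2e, a relative of the H3K4 enzymes with a divergent SET domain, had 2644, 1063 and 1777 units in PGCLCs, against 852, 757 and 880.2 in PGCs (log2 1.05, SE 0.25, limma adjusted p = 0.0112). The Kmt2e call was lost without PGCLC replicate 1 (0.73), without PGC replicate 2 (0.98) and after median centring (0.74). Setdb2, an H3K9 methyltransferase, had 356, 811 and 525 units in PGCLCs, against 1067, 1103 and 1075 in PGCs (log2 -1.02, SE 0.24, limma adjusted p = 0.011), the only gene that fell. Without PGCLC replicate 1 that difference was -0.73 and 0 genes were lower, and without PGCLC replicate 2 the number lower was 4.

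Each PGCLC array was therefore set against the PGC mean, gene by gene. PGCLC replicate 2 was nearest the PGC mean for 40 of 53 genes and replicate 1 farthest for 40, and replicate 3 lay between the other two for 45. At least 2-fold from the PGC mean were 5 genes higher and 8 lower for replicate 1, 1 higher and 0 lower for replicate 2, and 5 higher and 2 lower for replicate 3. The genes' median SD over 3 arrays was 0.29 on the log2 scale in PGCLCs and 0.10 in PGCs, against 0.30 and 0.13 over all genes tested, so this spread was not larger in the set than elsewhere. The summed signal of 8 blood and endothelial markers ran between 4261 and 17435 units on PGCLC arrays, against 13642 to 14669.8 on PGC arrays, and that of 7 fetal gonad somatic markers between 2816 and 8796, against 3269.9 to 4059. The part of these and of the PGC markers in the members' spread was not tested.

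**Figure D4:**
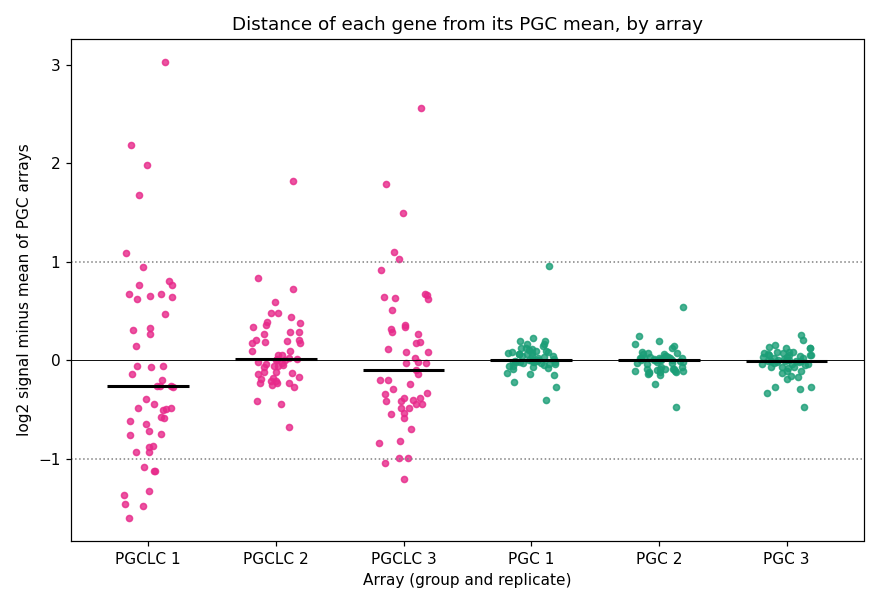
Each point is a gene, at its log2 signal on an array minus its mean on the PGC arrays; PGCLC arrays are on the left, PGC arrays on the right, the black bar is the median of 53 genes and the dotted lines mark 2-fold. PGCLC replicate 1 is the widest, replicate 2 has 52 of 53 genes within 2-fold, and the PGC arrays are narrow.

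Landmark genes not called between PGCLCs and PGCs included Kdm1a, at 8424 ± 367 units in PGCLCs and 8524 ± 462 in PGCs, Ezh2, at 4999.6 ± 686 and 4583 ± 185, Ezh1, at 745 ± 117 and 747 ± 79.4, and Setd2, at 1381 ± 199 and 1618 ± 98.3 (SD, n = 3 each). Prmt5 was lower on every PGCLC array than on any PGC array by 0.40 on the log2 scale (SE 0.10, limma adjusted p = 0.013), under the 2-fold minimum. Kdm5b was higher on every PGCLC array, by 0.37 (SE 0.08, limma adjusted p = 0.00795), also under it, while its other probe sets had 0.09 and -0.02. Suv39h2 was lower on every PGCLC array, under 2-fold (log2 -0.89, SE 0.25, limma adjusted p = 0.0223). Suv39h2 was called lower after median centring (-1.19), with array weights and without PGCLC replicate 2 (-1.23). Setdb1 was also lower on every PGCLC array (log2 -0.41, SE 0.11, limma adjusted p = 0.0202). The remaining uncalled landmark genes had -0.33 (Kmt2b), -0.27 (Ehmt2), 0.07 (Kdm4d), 0.08 (Kdm3a), 0.47 (Kdm6a), 0.48 (Nsd1) and 0.49 (Kmt5a).

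More than 1 probe set was present for 36 of the 53 genes, and other probe sets passed the filter for 33. Signals of different probe sets are not compared with each other, only their directions. Of the called genes with other passing probe sets, the sign was the same in all of them for 22 of 24 between RS and PGCs, 16 of 16 between SLCs and PGCLCs, 6 of 9 between SLCs and RS, and 2 of 2 between PGCLCs and PGCs, counting the sign alone and not the size. The exceptions were Nsd2 and Nsd3 between RS and PGCs, and Nsd3, Prmt3 and Setd7 between SLCs and RS.

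Setd7 was the case with the largest consequence. Its second probe set had 47.3 ± 8.15 units in SLCs and 73.7 ± 62.1 in RS (SD, n = 3 each), a log2 difference of -0.55 where the probe set used had 3.73. Both Setd7 probe sets were lower in RS than in PGCs, with log2 differences of -1.87 for the second and -3.48 for the one used. For Nsd2 the 3 other probe sets were lower in RS than in PGCs, with log2 differences between -2.93 and -0.51, whereas the probe set used had 1.12. They were also lower in SLCs than in PGCLCs, between -3.52 and -1.22, where the probe set used had 0.81. The mean over probe sets gave Nsd2 a difference of -0.95 (limma adjusted p = 0.000638).

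For Suv39h2 the other probe sets were also lower in RS than in PGCs, at 525 ± 51.7 units in RS against 879.9 ± 17.7 in PGCs and at 37.3 ± 3.54 against 383 ± 39.9. The mean over probe sets gave Suv39h2 a log2 difference of -1.35 (limma adjusted p = 3.07e-05) between RS and PGCs and of -1.18 (limma adjusted p = 0.000121) between SLCs and PGCLCs. Nsd3, a relative of Nsd1, fell in RS on the probe set used (log2 -1.81), while another of its probe sets had 892 ± 93.7 units in RS and 207 ± 22.1 in PGCs (SD, n = 3 each). Which transcript each probe set measures was not tested.

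**Figure D5:**
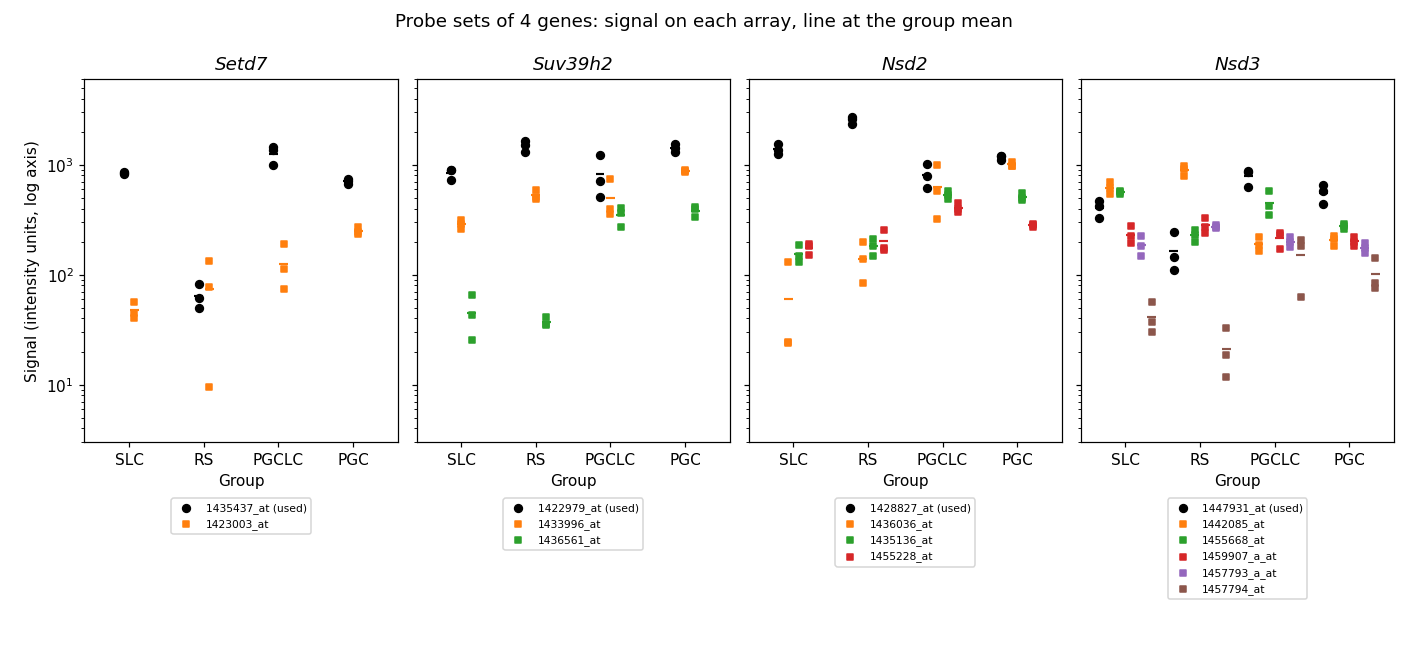
Signal of every probe set that passed the filter for 4 genes, in intensity units on a log axis, with 1 point per array and a line at the group mean; black circles are the probe set used and groups run SLC, RS, PGCLC, PGC. The black and coloured Setd7 points part in SLCs, and the black Nsd2 points are highest in RS where the other 3 probe sets are low.

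Partner genes that work with these enzymes were read from lists outside the rule, with the scaling as deposited and no other scaling run for them. Of the 9 subunits and cofactors of PRC2, 1 rose and 7 fell in RS relative to PGCs, and 1 rose and 8 fell in SLCs relative to PGCLCs. Jarid2, which recruits the complex, was at 533 ± 10.3 units in SLCs and 5501 ± 525 in PGCLCs, and at 473 ± 103 in RS and 5073 ± 324 in PGCs (SD, n = 3 each). Its log2 differences were -3.36 in culture and -3.44 in the animal (limma adjusted p = 7.89e-10 and 3.67e-10). Suz12, a core subunit, fell by 3.18 in culture, and Rbbp7, a histone-binding subunit, fell by 4.03 in the animal. The gene that rose was Phf1, a Polycomb-like protein, by 1.99 in culture and 2.81 in the animal. The methyltransferase Ezh2 of this complex fell in culture and was 1.29-fold lower in the animal, with an interaction of -0.93 (limma adjusted p = 0.00028) that is under the 2-fold minimum.

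Of the 9 subunits of the H3K4 (COMPASS) complexes, 4 fell and 0 rose in both stage comparisons, among them Rbbp5, a shared core subunit (log2 -3.30 in culture and -3.80 in the animal), and Hcfc1, a host cell factor (-2.48 and -4.33). Of the 4 partners of Prmt5, 3 fell in both. Wdr77, its obligate cofactor, fell 3.99-fold in culture and 5.52-fold in the animal, beside 5.66-fold and 6.92-fold for Prmt5. Prdm1, the PGC factor that binds Prmt5, fell by 2.09 on the log2 scale in culture and by 5.57 in the animal, the largest falls of this list. Between the late groups, Prdm1 was at 244 ± 29.5 units in SLCs and 52.0 ± 27.5 in RS (SD, n = 3 each), a rise of 2.35 in SLCs (SE 0.41, limma adjusted p = 0.000462).

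Of the 6 partners of Kdm1a in CoREST complexes, 1 rose and 2 fell in culture and 2 rose and 2 fell in the animal. Rcor3 rose by 2.53 in SLCs relative to PGCLCs and by 5.13 in RS relative to PGCs, and Rcor2 fell by 2.68 and 3.49, while Kdm1a had differences of -0.56 and -0.24. Of the 8 H3K9 partners and readers, 0 rose and 4 fell in culture, and 1 rose and 2 fell in the animal. Cbx1, an HP1 protein that binds methylated H3K9, fell by 2.57 in culture and 3.66 in the animal, and Cbx5, another HP1 protein, by 2.37 and 2.03.

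Of 20 listed histone methylation enzymes that the symbol rule leaves out 19 were measured, such as members of the SMYD, PRDM and RIOX families. Among them 0 rose and 11 fell in culture, and 2 rose and 12 fell in the animal. The median log2 differences of this list were -1.26 and -1.64, beside -1.21 and -1.68 for the 53 genes. Riox1 and Riox2, JmjC oxygenases of the nucleolus, fell by 3.03 and 2.70 in culture and by 4.22 and 4.07 in the animal. Between SLCs and RS, Uty, the Y-linked relative of Kdm6a, rose 2.83-fold (limma adjusted p = 0.000177), beside 3.35-fold for Kdm6a, and Smyd2, a lysine methyltransferase, rose by 1.34 (SE 0.17, limma adjusted p = 3.89e-05).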

How the data were processed

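The authors deposited a table of linear intensity values per probe set for 12 arrays. MAS5 is the tool named per the submitters' processing notes, and its version, background settings and detection calls are not given in the sources used here. The 2% trimmed mean was 500.0 on each array, so arrays had been scaled to a common level. Of 45101 probe sets, 34945 with a single gene symbol that were not controls were used. Signals below the table's 25th percentile (30.7) were raised to it and log2 values taken. Probe sets above the median (92.0) on at least 3 arrays were kept (24949), and the brightest per gene gave 14197 genes. Python 3.11.15 and limma 3.58.1 in R 4.3.3 were used: a single fit of 12 arrays with 4 group means and an intensity trend, with Benjamini-Hochberg adjustment over all genes. A call needed an adjusted p under 0.05 and a 2-fold difference. The steps were tested on simulated data. A fold is given as "at least" where the lower group was at the floor. P values measure the spread between arrays that the labels call biological replicates, and the number of arrays limits the precision.

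Given in full were the 6 largest called rises and falls per comparison, the 4 largest of each sign for the interaction, and landmark genes (Kdm1a, Kdm3a, Kdm4d, Kdm5b, Kdm6a, Kdm6b, Ehmt2, Suv39h2, Setdb1, Ezh1, Ezh2, Prmt5, Kmt2b, Setd2, Nsd1 and Kmt5a). From each partner list the largest differences in the stage comparisons were given, and those of the other comparisons only in part. Members, lists and tests were chosen with earlier results of these data known. Alternatives were another low-value treatment, filter, scaling, probe set summary, array weights, no fold minimum, 6-array fits, a replicate block and each array left out.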

Additional observations from a re-analysis of the deposited data

Results flagged for a closer look

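The difference between the stage changes in culture and in the animal, (SLC minus PGCLC) minus (RS minus PGC) on the log2 scale, passed the limma test and the 2-fold minimum for 16 genes. The positive values were 2.91 for Setd7, 2.21 for Nsdhl, 2.10 for Prmt1, 2.07 for Kmt2a, 1.86 for Prmt3, 1.73 for Nsd1, 1.73 for Kmt2c, 1.55 for Prmt2, 1.39 for Prmt9, 1.28 for Kdm6a, 1.25 for Kmt2d, 1.25 for Prmt6, 1.23 for Ehmt1 and 1.17 for Kdm1b. The negative values were -1.09 for Kdm6b and -2.85 for Prmt8. The Prmt8 value was partly built in, since the gene passed the filter through its PGCLC arrays alone. The Setd7 value rests on 1 of 2 probe sets. After quantile normalization Ehmt1 and Kdm1b were no longer called. In that setting 3 of 8 arginine and 3 of 8 H3K4 methyltransferases were called positive. The Kdm6a call was lost after quantile normalization (0.89) and with the mean over probe sets (0.33), and the Kdm6b call with no filter on low values (limma adjusted p = 0.0722), with the mean over probe sets (-0.25) and in all but 2 of the 12 fits that leave out 1 array.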

How the results depend on the processing

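Counts of called members were recomputed under 21 other settings, 12 of which leave out 1 array. The shares of all genes called under them were not computed. With no fold minimum the counts higher and lower were 8 and 11 for PGCLC minus PGC (4 and 1 as reported), 23 and 11 for SLC minus RS (13 and 0), 7 higher for RS minus PGC (4), 4 higher for SLC minus PGCLC (1) and 27 for the interaction (16). The fit of 6 arrays alone gave 0 and 0 for PGCLC minus PGC. For PGCLC minus PGC lower, log2(value + 16) gave 0, median centring 6 and array weights 4. For SLC minus RS, quantile normalization gave 8 higher, median centring 5 lower and the mean over probe sets 1 lower (Ehmt2). The mean over probe sets turned Nsd2 (RS minus PGC) to -0.95 and Suv39h2 to -1.35 (RS minus PGC) and -1.18 (SLC minus PGCLC); the other probe sets of both genes ran lower.

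Leaving out 1 array gave 3 to 5 higher and 0 to 4 lower for PGCLC minus PGC, 13 to 15 and 0 to 0 for SLC minus RS, 4 to 5 and 33 to 36 for RS minus PGC, 1 to 1 and 28 to 32 for SLC minus PGCLC, and 14 to 17 for the interaction. The 0 and the 4 came without PGCLC replicate 1 and without PGCLC replicate 2. The replicate block left every count as reported (4 and 1, 13 and 0, 4 and 35, 1 and 31, and 16). Same-numbered arrays correlated at -0.017 to 0.134, and with 3 arrays per group this does not settle whether they share a pairing. For single genes named, 2004 values kept direction and side of the threshold, 34 lost and 18 gained a call, and 3 reversed. Low signals near the floor limit Kdm4d, Prmt8 and Ezhip.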
